A study of Mus musculus with 12 samples.

Results

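Schwann cell myelin genes were followed in bulk RNA-seq of trigeminal ganglia, where the neurons that sense the face and its pain sit among their glia. The group holds 29 genes, listed by name for their known roles in peripheral myelin or in Schwann cells that make it. The list was chosen with earlier results of these data known. All 29 were matched by symbol among 55416 gene identifiers per library, and all 29 passed the filter on low counts, as did 16637 genes in all.

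The series compared 6 mice with an inducible knockout (iKO) of Prdm12, a transcriptional regulator of pain-sensing neurons, with 6 controls. All 12 were adult C57Bl6 animals, sampled 1 month after injection. Every iKO animal was Rosa26Cre ERT2; Fl/Fl and received tamoxifen, which activates the Cre ERT2 recombinase; iKO 1, 2 and 3 were female and iKO 4, 5 and 6 male. Controls 1 to 4 also received tamoxifen. Control 1 (female) was Rosa26Cre ERT2; Fl/+, control 2 (female) and control 3 (male) were +/+; Fl/+, and control 4 (male) was Rosa26Cre ERT2; +/+. Controls 5 and 6 were males of the iKO genotype, Rosa26Cre ERT2; Fl/Fl, that received corn oil. Rosa26 is active in most cell types, so the recombinase was not limited to neurons.

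Myelinating Schwann cells wrap a single axon segment in many turns of membrane. The transcription factors Sox10, Pou3f1 and Egr2 act in sequence to start and keep the myelin programme, and axonal neuregulin read through Erbb3 sets how much myelin is made. Compact myelin holds Pmp22, Mbp and Pmp2, while Mag, Cnp, Gjb1, Cldn19, Prx and Drp2 sit in the uncompacted, junctional or outer-surface regions. Several of these genes are mutated in Charcot-Marie-Tooth neuropathy. Mbp, Mag, Cnp, Mal, Fa2h, Ugt8a and Bcas1 are among the members also made by oligodendrocytes. These are the myelinating cells of the brain and of the central part of the trigeminal nerve root.

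Promoter windows of 300 bases (250 before to 50 after an annotated start) are shown for Pmp22, Cldn19 and Ncmap, the members with the smallest p below, and for Mag, the member with the widest spread. Each is the first window listed for its gene in the RefSeq table (GRCm38.p6), and these genes have 2 to 4 windows each. Capitals mark matches to letters bound by SOX factors (ACAAAG or ACAATG) or by EGR factors (GTGGGCG), on either strand. The motifs were picked after the promoter table had been opened.
Pmp22, chr11:63128732-63129031, plus strand: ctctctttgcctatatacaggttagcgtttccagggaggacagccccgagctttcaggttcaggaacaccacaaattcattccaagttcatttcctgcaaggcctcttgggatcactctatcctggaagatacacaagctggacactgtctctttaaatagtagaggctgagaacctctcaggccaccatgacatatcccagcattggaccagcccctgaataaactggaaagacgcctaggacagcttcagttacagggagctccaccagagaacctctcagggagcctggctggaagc
Cldn19, chr4:119255191-119255490, plus strand: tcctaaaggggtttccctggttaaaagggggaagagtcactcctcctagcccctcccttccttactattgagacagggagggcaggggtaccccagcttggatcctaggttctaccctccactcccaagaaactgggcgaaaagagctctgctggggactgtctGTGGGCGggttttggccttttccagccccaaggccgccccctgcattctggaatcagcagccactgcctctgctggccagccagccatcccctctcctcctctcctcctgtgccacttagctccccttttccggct
Ncmap, chr4:135398178-135398477, minus strand: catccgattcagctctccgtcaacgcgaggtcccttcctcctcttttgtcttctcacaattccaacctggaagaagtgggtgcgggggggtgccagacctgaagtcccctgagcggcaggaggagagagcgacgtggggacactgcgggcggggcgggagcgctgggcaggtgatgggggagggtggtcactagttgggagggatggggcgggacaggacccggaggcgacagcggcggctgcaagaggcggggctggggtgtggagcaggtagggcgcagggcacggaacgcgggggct
Mag, chr7:30914814-30915113, minus strand: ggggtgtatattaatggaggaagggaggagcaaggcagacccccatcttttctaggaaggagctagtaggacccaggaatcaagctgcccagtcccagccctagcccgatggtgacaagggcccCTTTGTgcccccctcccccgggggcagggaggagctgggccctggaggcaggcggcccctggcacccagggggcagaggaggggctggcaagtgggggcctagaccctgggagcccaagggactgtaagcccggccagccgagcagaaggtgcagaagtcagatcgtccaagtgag
The Cldn19 window held GTGGGCG, and the Mag window held ACAAAG on the opposite strand. The Pmp22 and Ncmap windows held neither set of letters. Over all 36 windows of the 18 members with an entry, 30.6% held a SOX match and 16.7% an EGR match, beside 28.6% and 7.97% of all 32851 windows. Among members these were 11 windows of 6 genes for SOX and 6 windows of 5 genes for EGR. Windows of a gene can overlap, and the same site was counted repeatedly for Cldn19 (EGR) and for Mag (SOX). A match is a description of these letters and not a binding site.

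Total counts ran from 13207526 to 24178970 per library. Prdm12, the targeted gene, was at 106 ± 28.4 CPM in the control group (CPM, counts per library total with TMM scaling). In the iKO group it was at 16.8 ± 1.97 CPM (mean ± SD, n = 6 each), with no overlap. The ganglion's sensory neuron genes were present in every library, with a summed level of 17544 to 21947 CPM over 15 genes. Transcripts of neighbouring tissue varied between libraries. The summed level of 17 oligodendrocyte genes ran from 227 to 2340 CPM in controls and from 233 to 855 CPM in iKO, highest in control 6. Of these, 15 were fitted lower in iKO and 2 higher, with a median log2 fold change of -1.03 and none called. Mog, a defining gene, ran from 0.84 to 79.1 CPM in controls and from 1.26 to 24.8 CPM in iKO, and Opalin and Olig2 were each at 0 counts in 1 library. Of 12 fibroblast and meningeal genes, 11 were fitted lower and 1 was called, the transporter gene Slc22a6 (log2 fold change -1.10, edgeR adjusted p = 0.0476; summed level 2104 to 3775 CPM in controls, 1463 to 2762 CPM in iKO), and all 8 macrophage genes were fitted lower with none called (272 to 410.1 and 205.5 to 342 CPM). The part of these 2 lists in the myelin results was not tested. The summed level of 11 pituitary and epithelial genes reached 2815 CPM in iKO 3, and that of 10 skeletal muscle genes 1193 CPM in iKO 5. All 10 muscle genes were fitted higher in iKO (median log2 fold change 1.25). Of 9 pituitary and epithelial genes tested, 8 were fitted higher and 1 lower (median 0.808). None of either list was called. Of 13 genes of satellite glia, another glial type of the ganglion, 6 were fitted higher and 7 lower, with none called (median -0.0984). Bulk RNA does not show which cell type made a transcript, and the part of satellite glia in the myelin results was not tested. In bulk tissue, fewer cells of a type and less RNA per cell cannot be told apart.

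The main comparison was of 6 iKO against 6 control libraries, with sex as a covariate. Of the 29 myelin genes, 19 had a higher and 10 a lower fitted level in iKO, beside 50.5% of all genes with a higher one, and 1 passed the threshold of an adjusted p under 0.05 in edgeR's quasi-likelihood test. That gene was Pmp22, and it rose. Over all 16637 genes, 0.174% were called higher and 0.204% lower. At an unadjusted p under 0.05, 8 of the 29 myelin genes were higher and none was lower, beside 4.9% of all genes higher and 6% lower. DESeq2 called 6 members, all higher: Pmp22, Ncmap, Cldn19, Drp2, Erbb3 and Mtmr2, beside 0.763% of all genes called higher by DESeq2. The groups did not overlap in 4 members, all with iKO above control, beside 0.679% of all genes. The median log2 fold change was 0.09 over the members and 0.00 over all genes tested (0.00114). Because the members were chosen with earlier results of these data known, their shares describe the list and do not test it. The same holds for the shares in the replicate sets below.

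**Figure D1:**
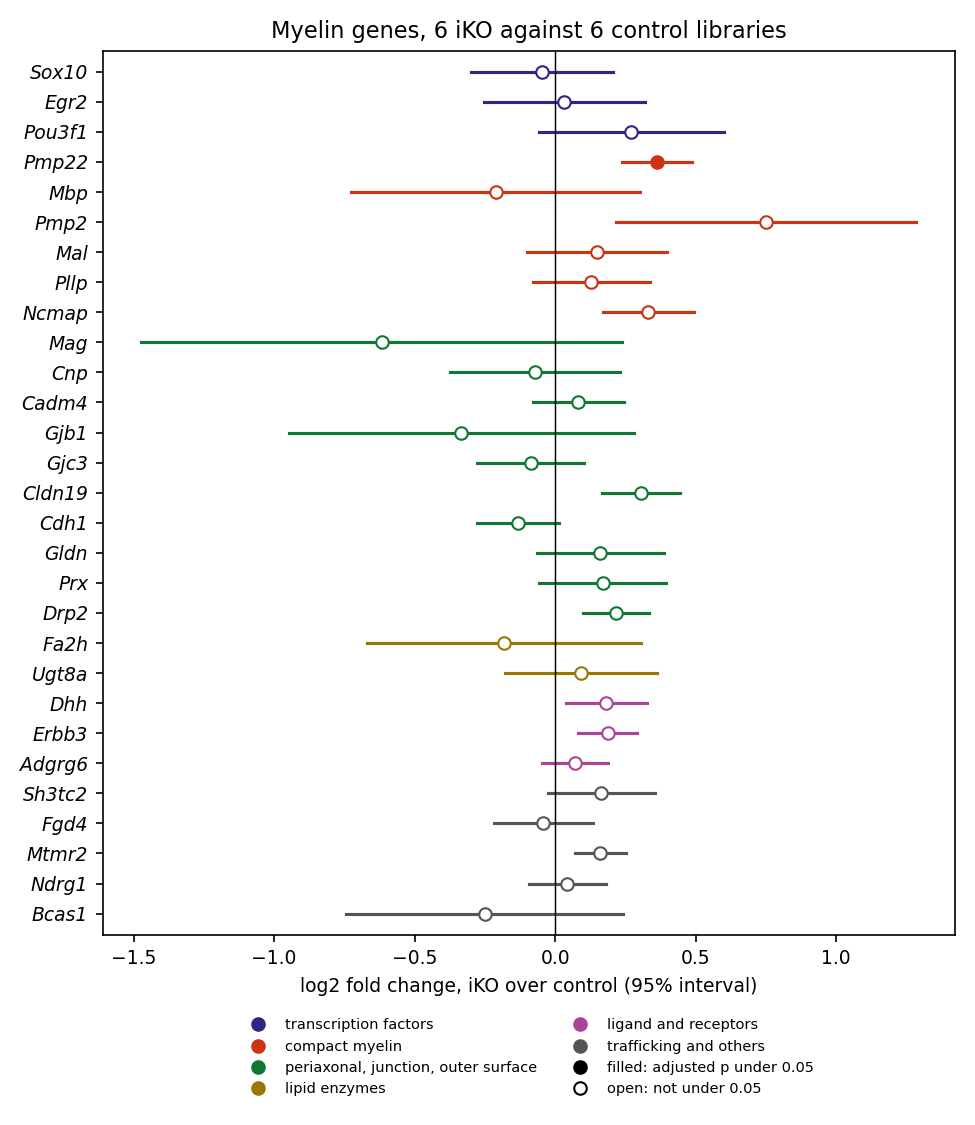
Log2 fold change of each of the 29 myelin genes, iKO over control, with 95% intervals from edgeR over 12 libraries, coloured by role. Pmp22 is the filled point (adjusted p = 0.018); the widest intervals are those of Mag, Gjb1, Pmp2 and other genes with a large spread.

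Compact myelin proteins and their membrane partners numbered 6, of which 5 were fitted higher in iKO. Pmp22 (ENSMUSG00000018217), a tetraspan protein whose dose sets the stability of peripheral myelin, measured 1694 CPM in the lowest, 1893 at the median and 2086 in the highest control. In iKO the lowest was 2257, the median 2283 and the highest 2611 CPM. Every iKO library lay above every control. The means were 1865 ± 147 and 2375 ± 164 CPM (SD, n = 6 each). The log2 fold change of Pmp22 was 0.36, its SE 0.0574 and its edgeR adjusted p 0.018. The call was lost without control 2 (0.34, edgeR adjusted p = 0.0827), iKO 1 (0.37, 0.0545) or iKO 5 (0.34, 0.0578), and with replicates 1 to 4 fitted alone (0.40, 0.0768). It was also lost without iKO 3 and iKO 5, the libraries highest in pituitary and muscle transcripts (0.34, 0.0827), and without controls 2 and 6 (0.34, 0.0837). A fit with a term for each replicate number lost the call as well (0.34, edgeR adjusted p = 0.1). The log2 fold change stayed between 0.33 and 0.40 in all 28 alternatives.

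Ncmap, a glycoprotein of noncompact and compact myelin, ran from 95.4 to 123 CPM in controls (median 118) and from 134 to 172 CPM in iKO (median 139.5). Its groups did not overlap either, with iKO 4 far above the other iKO libraries. The fitted difference was 0.33 ± 0.0749 on the log2 scale (SE; edgeR adjusted p = 0.0863). Pmp2, a fatty acid-binding protein of the myelin membrane, ran from 0.78 to 1.55 CPM in controls and from 1.29 to 2.83 CPM in iKO. It rested on 349 counts in all 12 libraries, and its log2 fold change of 0.75 ± 0.247 (SE) had an edgeR adjusted p of 0.267.

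The proteolipids Mal and Pllp overlapped between groups. Mal ran from 226 to 381 CPM in controls and from 291 to 349 CPM in iKO (log2 fold change 0.15, edgeR adjusted p = 0.69). Pllp ran from 15.6 to 20.9 and from 16.9 to 24.8 CPM (0.13, 0.675). Mbp, which glues the cytoplasmic faces of the membrane together, had the lowest fitted change of these 6. It ran from 2539 to 7584 CPM in controls (median 4478) and from 2929 to 4665 CPM in iKO (median 4046), so that all iKO values lay inside the control range. Its log2 fold change was -0.21, with a 95% interval from -0.73 to 0.30.

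**Figure D2:**
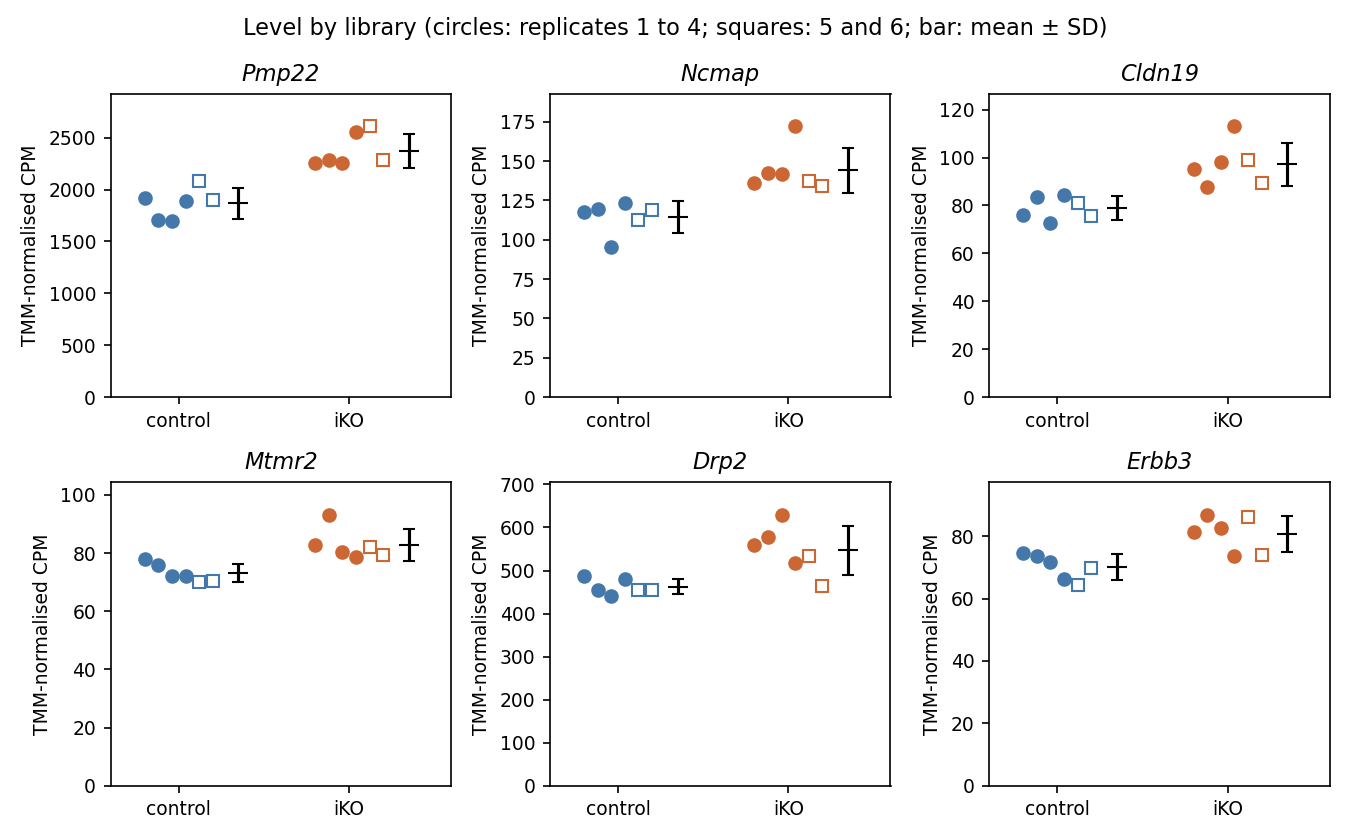
TMM-normalised CPM by library for Pmp22, Ncmap, Cldn19, Mtmr2, Drp2 and Erbb3, in 6 control and 6 iKO libraries; circles are replicates 1 to 4, squares replicates 5 and 6, and bars the mean ± SD. Pmp22, Ncmap, Cldn19 and Mtmr2 show no overlap, while Drp2 and Erbb3 overlap at the edges.

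Periaxonal, junctional and outer-surface proteins divided evenly, with 5 of 10 fitted higher and 5 lower and none past the threshold. Cldn19, a tight junction claudin of Schwann cells, ran from 72.6 to 84.5 CPM in controls (median 78.6) and from 87.7 to 113 CPM in iKO (median 96.8). The groups did not overlap. The fitted difference was 0.31 ± 0.0644 on the log2 scale (SE; edgeR adjusted p = 0.0695). Drp2, which forms a complex with Prx and dystroglycan beneath the outer Schwann cell membrane, ran from 441 to 488 CPM in controls and from 463 to 630.1 CPM in iKO. Most iKO libraries lay above the controls, with overlap at the low end (0.22 ± 0.0544, edgeR adjusted p = 0.118). Prx itself ran from 507 to 662 and from 519 to 749.6 CPM, with wide overlap (0.17, 0.602).

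Gldn, a ligand that gathers sodium channels at the node of Ranvier, had a mean of 34.3 ± 4.83 CPM in controls against 38.6 ± 4.23 CPM in iKO (log2 fold change 0.16). Cadm4, an adhesion molecule facing the axon, measured 171 ± 13.5 and 178 ± 22 CPM (0.08). Cdh1, the cadherin of the autotypic junctions within a Schwann cell, measured 204 ± 18.3 and 185 ± 13.9 CPM (-0.13, edgeR adjusted p = 0.521). All 6 iKO values of Cdh1 lay below the control median. Epithelial cells also make Cdh1, which measured 170.3 CPM in iKO 3, the library highest in pituitary and epithelial genes; their part in its level was not tested.

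The remaining genes of this role were fitted lower. Mag, the adhesion molecule of the membrane next to the axon, ran from 45.7 to 290.0 CPM in controls (median 134) and from 57.5 to 138 CPM in iKO (median 92.3). Gjb1, the connexin of reflexive gap junctions through the myelin layers, ran from 12.7 to 42.6 CPM in controls and from 13.5 to 25.2 CPM in iKO. In both genes the iKO values lay inside the control range. The log2 fold changes were -0.62 (95% interval -1.47 to 0.24) for Mag and -0.33 (-0.95 to 0.28) for Gjb1. Cnp, an enzyme of noncompact myelin, had -0.07, and the connexin gene Gjc3 had -0.09. Cnp overlaps Dnajc7 on the opposite strand, and without strand their shared reads cannot be told apart.

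None of the 3 transcription factors passed. Sox10, which specifies the Schwann cell lineage, ran from 92.5 to 120.1 CPM in controls and from 70.7 to 122 CPM in iKO (log2 fold change -0.05, 95% interval -0.30 to 0.21). Egr2, the master regulator of myelination, ran from 20.8 to 33.1 and from 22.4 to 34.3 CPM (0.03, -0.25 to 0.32). The Egr2 ranges nearly coincided, while Sox10 spread wider in iKO, where iKO 2 (70.7 CPM) and iKO 6 (83.4 CPM) lay below every control. Pou3f1, which is high in promyelinating cells, ran from 6.66 to 10.6 CPM in controls and from 7.21 to 14.3 CPM in iKO (0.27, -0.06 to 0.60).

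The ligand and receptors were all fitted higher, with none past the threshold. Erbb3, the neuregulin receptor subunit, ran from 64.3 to 74.5 CPM in controls (median 70.8) and from 73.5 to 87 CPM in iKO (median 82). The groups met only at their edges (log2 fold change 0.19 ± 0.0483, edgeR adjusted p = 0.128). Dhh, the hedgehog ligand by which Schwann cells signal to the nerve sheath, ran from 33 to 41.7 and from 41.2 to 47.9 CPM (0.18 ± 0.0669, 0.327). Dhh overlaps Rhebl1 on the same strand. Adgrg6, an adhesion G protein-coupled receptor needed to start myelination, ran from 56.4 to 62 and from 56.9 to 70.9 CPM (0.07, 0.683).

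Of the lipid enzymes, Fa2h makes hydroxylated fatty acids and Ugt8a makes galactosylceramide. Fa2h ran from 39.9 to 105 CPM in controls and from 50.5 to 74.5 CPM in iKO (log2 fold change -0.18). Ugt8a ran from 122 to 221 and from 168 to 204 CPM (0.09). In both, the iKO values lay inside the control range.

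Of the 5 genes of trafficking, phosphoinositides and other functions, 3 were fitted higher. Mtmr2, a phosphoinositide phosphatase mutated in a form of Charcot-Marie-Tooth disease, ran from 70 to 78 CPM in controls (median 72.1) and from 78.6 to 93.3 CPM in iKO (median 81.2). The groups did not overlap, by a narrow margin (log2 fold change 0.16 ± 0.0414, edgeR adjusted p = 0.125). Sh3tc2, an endosomal adaptor, measured 18 ± 2.18 and 20.3 ± 1.63 CPM (0.17). Ndrg1 measured 576 ± 49.4 and 597 ± 40.9 CPM (0.04), and Fgd4, an exchange factor for Cdc42, 30.2 ± 4.36 and 29.7 ± 2.77 CPM (-0.04). Bcas1, a marker of newly myelinating glia, ran from 94.3 to 272 CPM in controls and from 111 to 156 CPM in iKO (-0.25).

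Per kilobase of exon, Pmp22 had the highest control level of the group, at 792 CPM per kb, and Mbp came next at 536 CPM per kb. That order depends on the length used, which joins all annotated exons of a gene (8469 bases for Mbp, 2354 for Pmp22). Without division by length Mbp was highest, with a control mean of 4536 CPM, and Pmp22 was next at 1865 CPM. Cnp, Mal and Prx followed at 104 to 115 CPM per kb. Pmp2 was lowest, at 0.823 CPM per kb. The spread between libraries set the members apart as well. The highest library exceeded the lowest 6.35 times for Mag, 3.35 times for Gjb1, 2.99 times for Mbp, 2.88 times for Bcas1 and 2.63 times for Fa2h, and control 6 was the highest library for each of these 5. For Pmp2, at few counts, the ratio was 3.63 and the highest library iKO 5. For Pmp22 this ratio was 1.54, and for Adgrg6 1.26.

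Mag, Gjb1, Mbp, Bcas1 and Fa2h moved with the oligodendrocyte genes from library to library, and Pmp2 did not (r = -0.0136, rho = 0.0559; permutation p = 0.967 and 0.869, adjusted p = 0.967 and 0.87). The relation was examined after the values had been seen. Over 12 libraries, Mag correlated with the mean log2 level of the 17 oligodendrocyte genes at Pearson's r = 0.981 and Spearman's rho = 1 (permutation p = 1e-05 for each, the smallest that 100000 resamples can give; adjusted p over 29 members 9.67e-05 and 0.00029). Gjb1 (r = 0.945, rho = 0.937), Bcas1 (0.919, 0.958), Mbp (0.906, 0.937), Fa2h (0.878, 0.909), Cnp (0.868, 0.895) and Gjc3 (0.815, 0.762) followed. In these 7 genes r stayed at 0.724 or above without control 4 and iKO 1, the libraries farthest from the median. Within the 6 controls alone it was at least 0.84, and within the 6 iKO libraries alone at least 0.686.

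**Figure D3:**
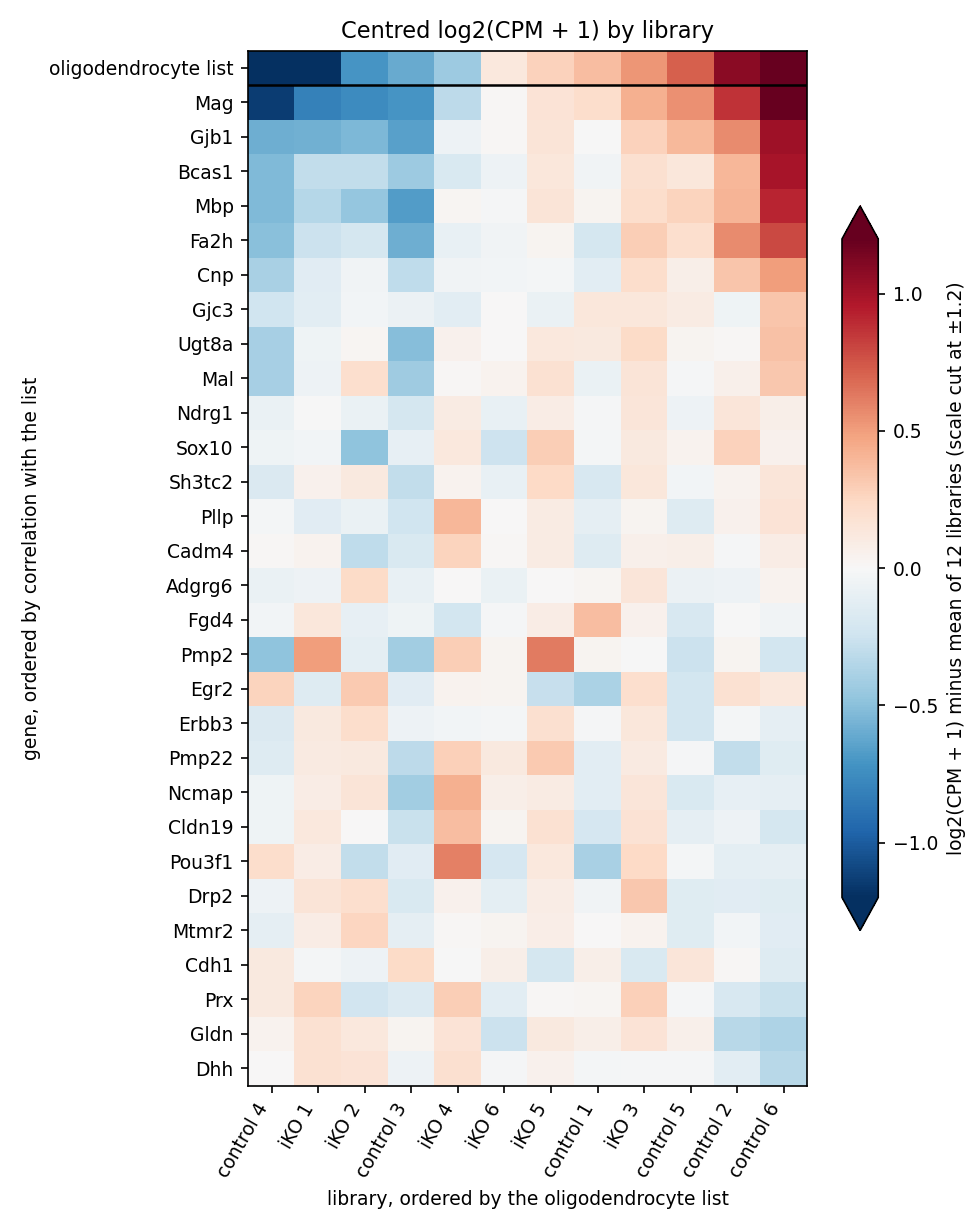
Centred log2(CPM + 1) of the 29 myelin genes in 12 libraries, ordered from left to right by the oligodendrocyte list (top band) and from top to bottom by their correlation with it. Mag, Gjb1, Bcas1 and Mbp follow the band from control 4 to control 6, while Pmp22, Ncmap and Cldn19 do not.

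Among the other members, Ugt8a had r = 0.698 and rho = 0.678 (permutation p = 0.0107 and 0.019, adjusted p = 0.0344 and 0.069). Dhh ran the other way, with r = -0.718 and rho = -0.664 (permutation p = 0.00763 and 0.0223, adjusted p = 0.0277 and 0.0719). In all, 9 of 29 members passed an adjusted permutation p under 0.05 for r, 8 of them positive, and 7 of 29 did for rho. The permutation test was run on members only, so no share over all genes stands beside these counts. An r of 0.8 or more was reached by 7 of 29 members, beside 2.33% of the 16637 genes tested. A rho of 0.8 or more was reached by 6 of 29 members, beside 2.59%. The genes tested include the listed oligodendrocyte genes. Pmp22 had r = -0.171 and rho = -0.126 (permutation p = 0.594 and 0.701, adjusted p = 0.718 and 0.782). Ncmap had r = -0.182 and rho = -0.322 (permutation p = 0.577 and 0.308, adjusted p = 0.718 and 0.425).

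**Figure D4:**
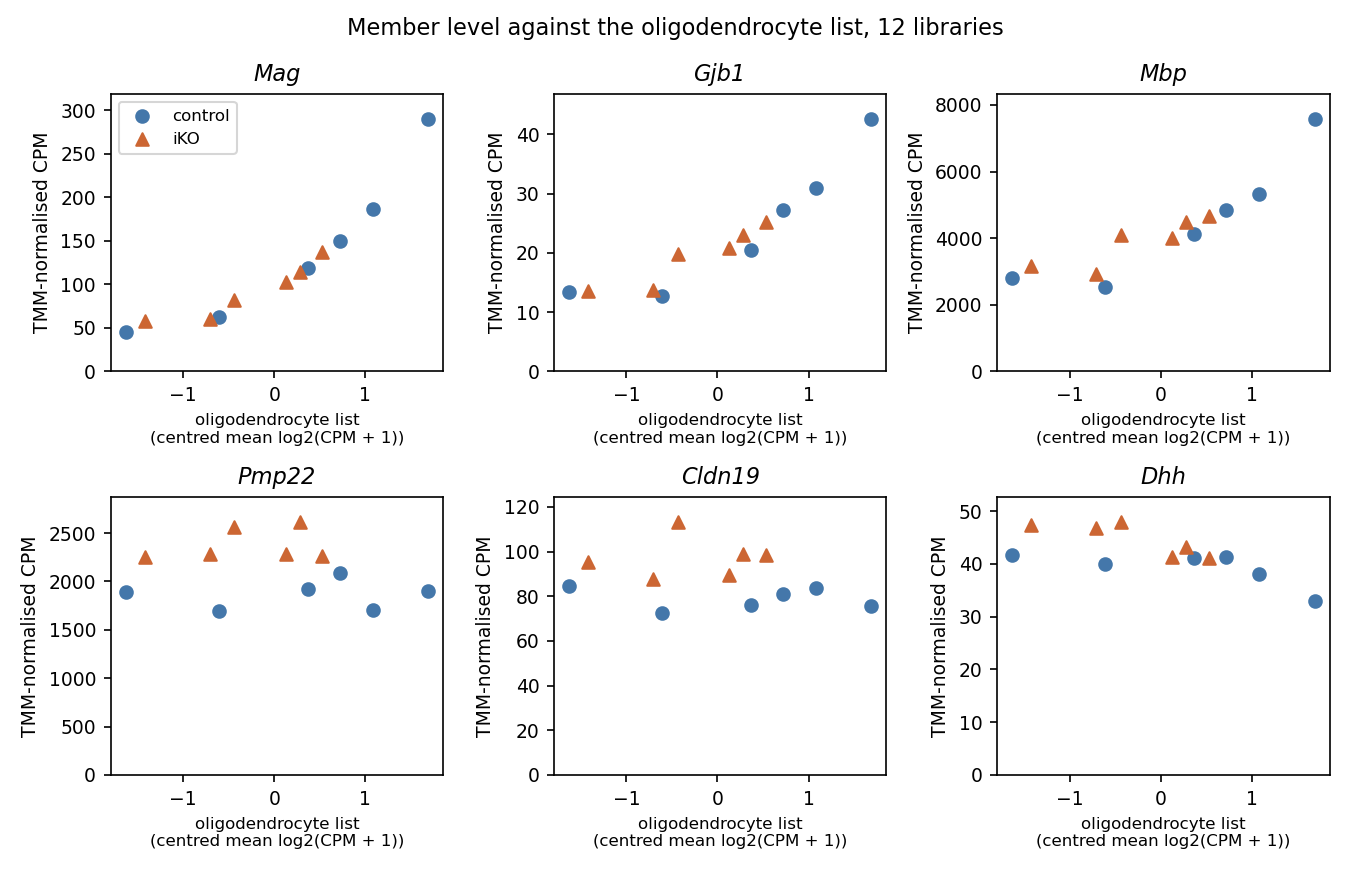
Level of 6 myelin genes (TMM-normalised CPM) against the centred mean log2(CPM + 1) of the oligodendrocyte list, 6 control libraries (circles) and 6 iKO libraries (triangles). Mag, Gjb1 and Mbp climb with the list in both groups, Pmp22 and Cldn19 separate by group at every value of it, and Dhh is lowest in control 6.

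With the oligodendrocyte mean as a covariate, 25 members were fitted higher and 4 lower. Pmp22 was again the member called (log2 fold change 0.37, edgeR adjusted p = 0.0154). Over all genes 97 were called in this fit, against 63 in the main one. The share of all genes fitted higher was not computed for this fit, so the 25 members have no background beside them. The fitted change of Mag moved from -0.62 to -0.01, that of Mbp from -0.21 to 0.09, that of Gjb1 from -0.33 to 0.04 and that of Bcas1 from -0.25 to 0.03. None of these passed the threshold in either fit. The oligodendrocyte list was itself fitted lower in iKO (median log2 fold change -1.03). Across libraries Mag, Gjb1, Bcas1 and Mbp rose with it (r = 0.981, 0.945, 0.919 and 0.906). Shifts in this direction follow from that relation alone, so this fit shows nothing about their cause, which was not tested. Without control 6, Mag was at -0.27 and Mbp at -0.01.

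Controls 1 to 4 differ from the iKO animals in genotype, and controls 5 and 6 in the injected agent, so the comparison was also made within these replicate sets. The iKO animals were divided between the sets by replicate number only, as all had the same genotype and injected agent. What a shared number means is not given in the labels. All animals of replicates 1 to 4 received tamoxifen. There, 20 members were fitted higher and 9 lower (48.4% of all genes were higher), none was called, and 9 were higher at an unadjusted p under 0.05. Over all genes 0.114% were called, and 3.62% were higher at an unadjusted p under 0.05. Pmp22 was at 0.39 ± 0.0698 on the log2 scale (SE; edgeR adjusted p = 0.0697), Ncmap at 0.39 ± 0.0926 and Cldn19 at 0.34 ± 0.0806. Pou3f1 was at 0.42 ± 0.161. DESeq2 called 4 members higher in this set, Pmp22, Ncmap, Cldn19 and Drp2, beside 0.409% of all genes higher.

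Replicates 5 and 6, with 2 libraries a group, were all male and of the iKO genotype; the injected agent differed, corn oil against tamoxifen. Of the members 15 were fitted higher and 14 lower, beside 48.5% of all genes higher. None was called, beside 0.00601% of all genes. At an unadjusted p under 0.05, 5 members were higher and 1 was lower, beside 3.8% and 4.07% of all genes. Pmp22 was at 0.30 ± 0.096 on the log2 scale (SE; edgeR adjusted p = 0.577), Cldn19 at 0.27 ± 0.111 and Erbb3 at 0.26 ± 0.0855. DESeq2 called 0 members, beside 0.415% of all genes. Mag had -1.02, Gjb1 -0.68, Bcas1 -0.59 and Mbp -0.55. Control 6, the library highest in oligodendrocyte genes, is 1 of the 2 controls of this set.

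The difference between the sets was tested as an interaction, and no gene was called, member or not (0% of all genes). Of the members, 6 had a higher and 23 a lower fitted change in replicates 5 and 6, with a median difference of -0.16, beside 46.9% of all genes higher. At an unadjusted p under 0.05 there were 0 members, and 2.25% of all genes higher and 1.17% lower. DESeq2 called 0 members, beside 0.0301% of all genes. For Pmp22 the difference was -0.09 ± 0.119 (SE). The errors were wide for Mag (-0.70 ± 0.609) and Mbp (-0.53 ± 0.378), and neither passed the threshold. The size of difference that these libraries could detect was not computed.

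**Figure D5:**
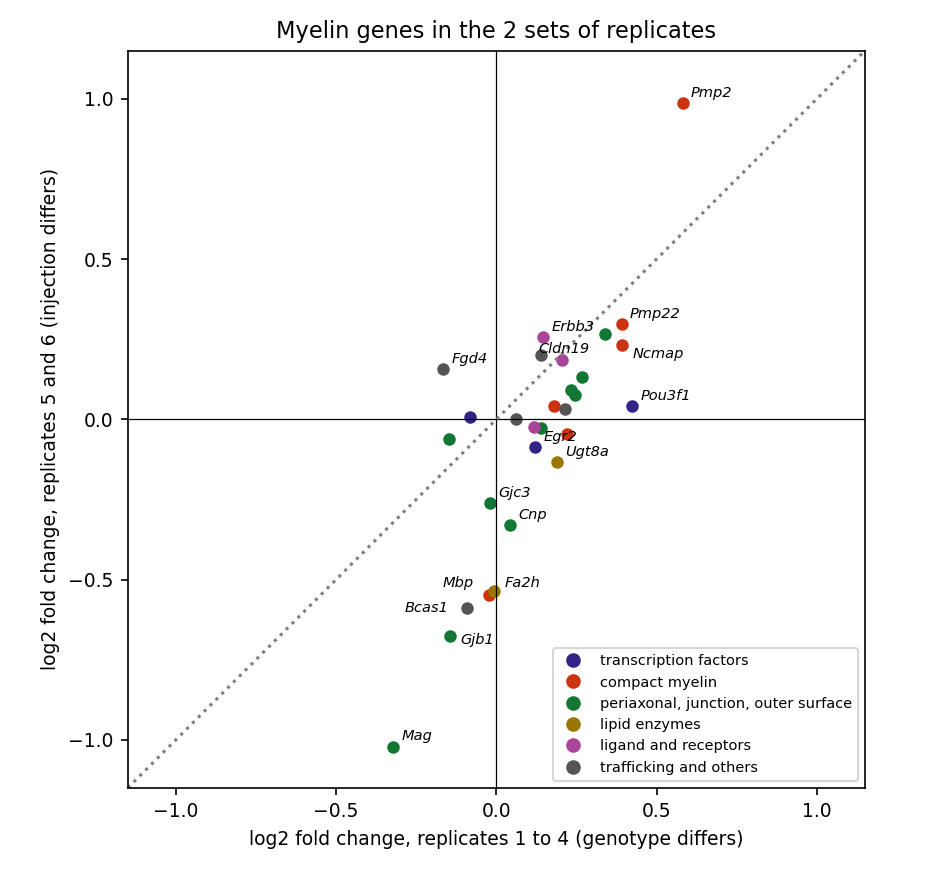
Log2 fold change of each myelin gene in replicates 5 and 6 (vertical axis, injection differs) against replicates 1 to 4 (horizontal axis, genotype differs), coloured by role; the dotted line marks equal values. Pmp22, Ncmap and Cldn19 lie above 0 on both axes, and Mag, Gjb1, Bcas1, Mbp and Fa2h lie far below 0 on the vertical axis only or mainly.

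Between males and females no member passed, beside 0.108% of all genes called. At an unadjusted p under 0.05 (4.95% of all genes lower in males), Drp2 (log2 -0.14), Erbb3 (-0.11) and Mtmr2 (-0.10) were lower in males. Across libraries, the number of members above their own median was 1 of 29 in control 3 and 5 in control 4, and 26 in iKO 3 and in iKO 5. The other libraries had 13 to 17.

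Among 43 further genes of Schwann cell myelination, 23 were fitted higher and 20 lower in iKO, with a median log2 fold change of 0.01. The 1 called was Nab1, a corepressor that binds Egr2, which rose from 44.8 ± 1.21 to 54 ± 3.76 CPM (0.25, edgeR adjusted p = 0.015) without overlap. Its partner Nab2 measured 12.1 ± 1.38 and 11.3 ± 1.41 CPM (-0.10). In males Lama2, a basal lamina subunit, was lower (-0.43, edgeR adjusted p = 0.0451).

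Of 21 genes of immature or repair Schwann cells, 18 were tested, 9 were fitted higher and 9 lower, and none was called. Their log2 fold changes ran from -1.31 to 0.394, with a median of 0.000928. At an unadjusted edgeR p under 0.05, 2 were higher and 1 was lower, beside 4.9% and 6% of all genes. The genes named next were all among those fitted higher. Shh, a hedgehog ligand that injured Schwann cells can make, ran from 10.9 to 15.6 CPM in controls and from 15.9 to 19 CPM in iKO, without overlap (0.39, edgeR adjusted p = 0.0562). Which cells made Shh in these ganglia was not tested. Chl1 measured 156 ± 16.9 and 186 ± 12.2 CPM (0.26, edgeR adjusted p = 0.171). Jun, the regulator of the repair state, measured 104 ± 9.64 and 114 ± 15.2 CPM (0.14, edgeR adjusted p = 0.596).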

How the data were processed

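Trigeminal ganglion RNA was measured in 12 libraries. The authors deposited raw counts per gene without normalization; the tools were featureCounts 2.0.1, STAR 2.7.8a and bcl2fastq 2.20.0.422, with GRCm39, per the submitters' processing notes. Per the labels' protocols the libraries were polyadenylated and unstranded. Counting options and annotation release: not given in the sources used here. Symbols came from tables on GRCm38, and 52083 of 55416 identifiers had one.

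Genes were filtered with filterByExpr by group, scaled with TMM (factors 0.969 to 1.02) and tested in edgeR 4.0.16 (R 4.3.3) by quasi-likelihood with sex as covariate, with Benjamini-Hochberg adjustment over 16637 genes and a threshold of 0.05. Replicate sets were contrasts in 1 fit. A count of 0 allows 0.124 to 0.227 CPM (3 counts), which covers counting error only. Pairs of libraries of a group differed by chi-square of 7.16 to 26.2 per gene, beyond sampling noise. Labels do not name separate litters or days, so p-values measure the spread between these animals. The tests were tried on simulated counts with planted changes larger than that fitted for Pmp22. The outcome is not reported here, and changes of the size of Pmp22's were not simulated. The members and lists were chosen with earlier results of these data known. All members are described; of other lists, called genes up to 4, or the 2 with the smallest p, are named, while Nab2 and Jun were added after their values were seen. Some genes of the list of further myelination genes are counted in it but not reported here. Alternatives were other scalings and filters, DESeq2 1.42.0, limma-voom (limma 3.58.1), other covariates, subsets and leaving out each library.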

Additional observations from a re-analysis of the deposited data

Results flagged for a closer look

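In groups of 6, a library was singled out when its gap to the nearest other exceeded 0.625 of the group's range. Of 58 member groups 6 were singled out, and chance alone gives about 1 in 20. Sox10 was high in control 2 (120.1 CPM, others 92.54 to 102.3). Ncmap was high in iKO 4 (172.3 CPM, others 134.2 to 142.3), and Cnp was high in iKO 3 (466.5 CPM, others 365.4 to 395.2). Gldn was low in iKO 6 (30.03 CPM, others 39.28 to 41.05). Fgd4 was high in control 1 (38.7 CPM, others 25.99 to 29.64) and Mtmr2 in iKO 2 (93.25 CPM, others 78.6 to 82.61).

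The summed pituitary and epithelial genes were high in control 2 (692.4 CPM, others at most 189.6) and in iKO 3 (2815 CPM, others at most 353.1). The summed skeletal muscle genes were high in control 6 (321.8 CPM, others at most 203.3) and in iKO 5 (1193 CPM, others at most 419.5).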

How the results depend on the processing

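Over 28 alternatives and 29 members, 812 values in all, 764 kept their direction and side of the threshold, 7 lost the call, 9 gained one and 32 changed sign. The 7 losses were all of Pmp22, and no member that was called changed sign. The labels do not say whether a shared replicate number pairs libraries. Correlations of same-numbered libraries ran from -0.396 to 0.35, and correlations alone cannot show how animals were matched. With a replicate block Pmp22 was at 0.34 on the log2 scale (edgeR adjusted p = 0.1), 0 members were called and 15 genes in all. Members called in the comparison of all 12 libraries numbered 2 with upper-quartile scaling and with library totals, 3 without the low-count filter, 6 with DESeq2, and 0 with replicates 1 to 4 alone, without controls 2 and 6 or without iKO 3 and iKO 5. Leaving out 1 library gave 0 to 1 members and 23 to 88 genes in all. All genes called numbered 138 without the filter, 332 with DESeq2, 97 with the oligodendrocyte covariate, 12 with replicates 1 to 4 alone, 28 without controls 5 and 6, and 36 without controls 2 and 6 or without iKO 3 and iKO 5. In replicates 1 to 4, DESeq2 called 4 members.

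Without the filter, 6 members were called in replicates 1 to 4, 7 in replicates 5 and 6 and 4 in the difference between the sets. In that fit edgeR's prior degrees of freedom were infinite (4.19 with the filter), so that each gene's own spread had no weight and these counts are not reliable. With the bias-adjusted quasi-likelihood, chosen after this was seen, the prior was 6.78 without the filter, and the counts were 1, 0 and 0. The settings without controls 2 and 6 and without iKO 3 and iKO 5 were also chosen after the data were seen.

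None of the values that changed sign passed the threshold. With the oligodendrocyte covariate they were Sox10 0.0028, Bcas1 0.035, Gjb1 0.039, Cnp 0.085, Mbp 0.088 and Fa2h 0.091. Without controls 5 and 6 they were Gjc3 0.018, Gjb1 0.042, Bcas1 0.06, Cnp 0.10, Mbp 0.11 and Fa2h 0.11. Without controls 2 and 6 they were Sox10 0.046, Gjb1 0.094, Bcas1 0.12, Mbp 0.13, Cnp 0.15 and Fa2h 0.21. With the replicate block they were Egr2 -0.0056 and Ndrg1 -0.0068, with replicates 1 to 4 alone Cnp 0.047, and without iKO 3 and iKO 5 Ndrg1 -0.0018. With 1 library left out, values ran from -0.136 to 0.0363 for Sox10, from -0.135 to 0.0421 for Cnp, from -0.283 to 9.05e-05 for Fa2h, from -0.0967 to 0.0396 for Fgd4 and from -0.0776 to 0.104 for Egr2. The causes were not tested. Counting depth limits Pmp2 (349 counts) most.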
